A study of Mus musculus with 6 samples.

Results

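Non-muscle myosin II is the motor that pulls on actin filaments in cells other than striated muscle. Its genes were followed here in mouse megakaryocyte progenitors with and without serum response factor. The members were chosen by gene name: the heavy chains Myh9 and Myh10, the light chains Myl6, Myl9, Myl12a and Myl12b, the light chain kinases Mylk and Mylk3, and the phosphatase subunits Ppp1r12a and Ppp1cb. Of these 10 genes, 8 had at least 1 probe by the platform annotation, with 14 probes among 24611 on the array. No probe was annotated to Myl9 or Mylk3, which have no expression value here and enter only the search of start regions.

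The arrays compared SRF knockout with SRF wild-type cells, 3 arrays each. In the knockout, titled SRF-/-, Srf was deleted by a Cre recombinase that the Pf4 promoter drives; Pf4 encodes a platelet alpha granule chemokine and is active in the megakaryocyte lineage. The wild-type cells were titled SRF+/+, and the labels do not say whether they carried Cre. Both groups came from C57BL/6 bone marrow depleted of lineage-marked cells, kept overnight in stem cell factor and thrombopoietin, sorted for CD41 and c-kit and grown for 3 days in thrombopoietin. The design names 3 wild-type and 3 knockout mice, though the labels tie no replicate to an animal. A p-value here therefore reflects sample-to-sample spread, part of which may be technical.

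Each myosin II molecule joins a pair of heavy chains, which carry the ATP-driven heads and the tail that assembles into filaments, with essential and regulatory light chains. Phosphorylation of the regulatory light chain by myosin light chain kinase and other kinases switches the motor on, and myosin phosphatase switches it off. In megakaryocytes myosin II works in cell division, in the hold on platelet release and in the shape of platelets, and MYH9 mutations in people cause large platelets and low platelet counts. Srf encodes a transcription factor that binds the CArG box and drives many genes of the actin cytoskeleton.

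Srf itself averaged log2 7.37 ± 0.18 in knockout arrays and 12.06 ± 0.22 in wild-type arrays (SD, n = 3 each; ILMN_2769688, limma adjusted p = 5.4e-05). Between 9801 and 10364 probes were above background on each array, meaning a detection p under 0.05. All 12 megakaryocyte markers on the array were above background on every array, with summed intensities of 114710 to 131650 in the knockout and 109030 to 132890 in the wild-type. Some arrays stood apart within their group. The summed intensity of 13 granulocyte markers was 30087, 2001 and 3182 in knockout replicates 1 to 3, against 2371, 49298 and 58824 in wild-type replicates 1 to 3. The sum of 11 mast cell and basophil markers was 778, 621 and 806 in the knockout, against 511, 11741 and 14599 in the wild-type, and 5 of the 11 (Tpsab1, Tpsb2, Cma1, Mcpt4 and Il4) were above background on no array. Wild-type replicates 2 and 3 were thus high in both lists, and knockout replicate 1 in the granulocyte list.

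Across the myosin II members no probe passed the test. A probe was tested if it was above background on all 3 arrays of at least 1 group, and 10 of the 14 member probes, from 7 genes, were. They passed through both groups, being above background on all 6 arrays. Of these 10, none had a limma adjusted p under 0.05 (Benjamini-Hochberg over 9403 tested probes; 0.192 to 0.935), where 0.16% of all tested probes passed, 0.138% lower and 0.0213% higher in the knockout. At an unadjusted p under 0.05 there were 5 member probes, 3 lower and 2 higher, where 13.7% of all tested probes had such a p, 5.97% lower and 7.75% higher. The light chains Myl6 and Myl12a and 1 of 2 Myl12b probes lay lower in all knockout arrays than in any wild-type array, and both Mylk probes lay higher. That made 5 of 10 member probes with the groups apart, 3 lower and 2 higher, where 18.9% of all tested probes had them apart, 9.08% lower and 9.77% higher. The median difference over the 10 was -0.03 on the log2 scale, against 0.01 over all tested probes, with 5 negative and 5 positive.

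**Figure D1:**
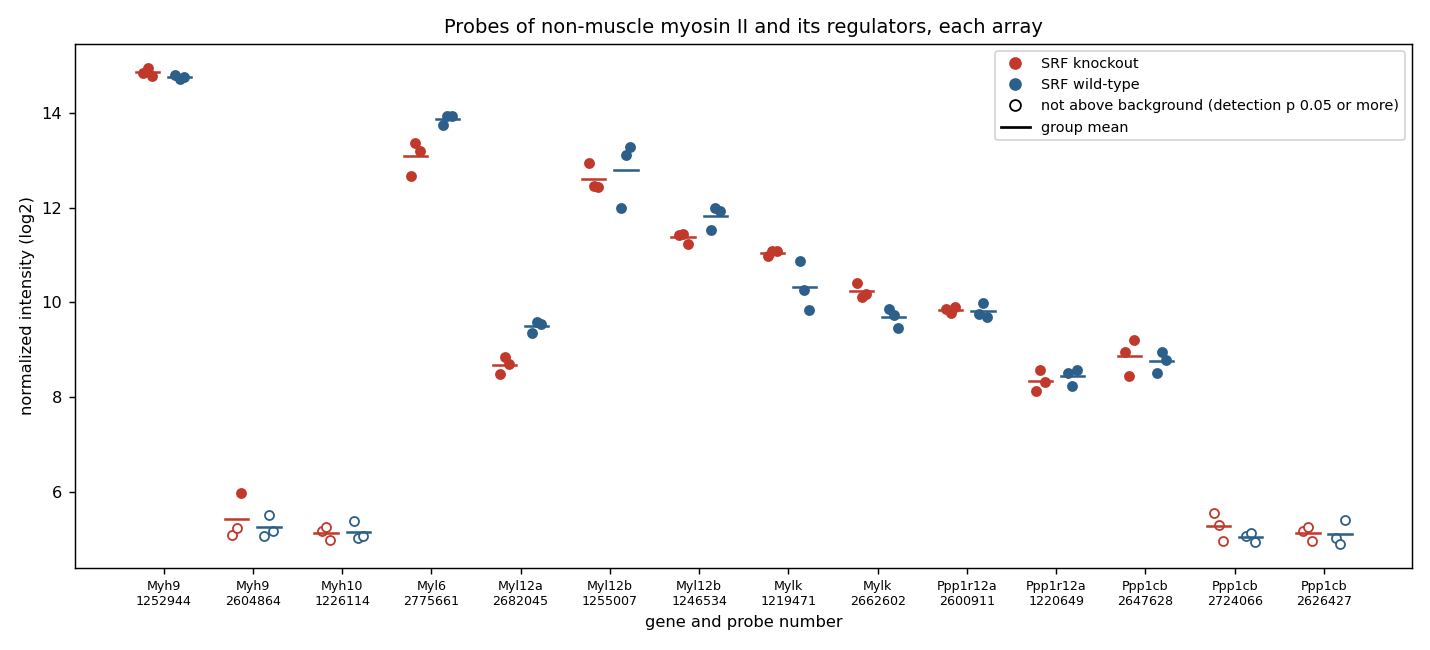
Normalized log2 intensity (y axis) of each of the 14 member probes (x axis) on 3 knockout arrays (red, left) and 3 wild-type arrays (blue, right); points are arrays, bars are group means, and open points were not above background. Myl6 and Myl12a sit lower in the knockout and both Mylk probes higher with no overlap, while the bright Myh9 probe hardly moves.

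Myh9 encodes heavy chain IIA, the main myosin II heavy chain of platelets. Its bright probe (ILMN_1252944) lay at log2 14.83, 14.95 and 14.78 in knockout replicates 1 to 3, against 14.80, 14.71 and 14.75 in wild-type replicates 1 to 3. The groups overlapped, and the 6 arrays spanned 0.24. The difference, knockout minus wild-type here and throughout, was 0.10 (SE 0.13, 95% confidence interval -0.20 to 0.40, limma adjusted p = 0.727). Its sign turned to -0.11 when arrays were scaled to their 75th percentile. It was the brightest member probe, with raw intensities of 25280 to 35301 in the knockout and 24722 to 29251 in the wild-type. The intervals given for single probes are not adjusted for the number of probes.

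The other heavy chain probes were dim. A second Myh9 probe (ILMN_2604864) was above background on 1 knockout array and no wild-type array, and its highest value was 5.98, in knockout replicate 3. Myh10 encodes heavy chain IIB, which is known to be silenced as megakaryocytes become polyploid. Its only probe (ILMN_1226114) was above background on no array, at 5.17, 5.27 and 4.99 in the knockout and 5.39, 5.03 and 5.07 in the wild-type. Neither probe was tested, and no fold is given, since at this signal a difference was not detectable.

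Among the light chains, Myl12a had the smallest p of all members. It encodes a regulatory light chain, the subunit whose phosphorylation turns the motor on. The probe (ILMN_2682045) lay at 8.49, 8.85 and 8.70 in the knockout, against 9.37, 9.59 and 9.55 in the wild-type. Every knockout array was lower than every wild-type array, with a gap of 0.51 between the groups. The means were 8.68 ± 0.18 in the knockout and 9.50 ± 0.12 in the wild-type (SD, n = 3 each), a difference of -0.82 (SE 0.15, interval -1.17 to -0.47), or 1.77-fold lower. It ranked 36th by p among all tested probes, yet its limma adjusted p was 0.192. It stayed negative under all 16 alternatives, from -0.91 to -0.52. Those with another filter, another variance model or the replicate block refit the same values, so the difference could not move there. The probe passed under 2 of the 16. These were the fit lacking wild-type replicate 1 (-0.89, adjusted p = 0.024) and that with array weights (-0.83, adjusted p = 0.011). The first left only wild-type replicates 2 and 3, high in granulocyte and mast cell markers, and the second weighted wild-type replicate 2 most. The part of those cells was not tested. With wild-type replicates 2 and 3 left out, and only wild-type replicate 1 kept in its group, the Myl12a difference was -0.68.

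Myl6 encodes the essential light chain, which stiffens the lever arm of the heavy chain. Its probe (ILMN_2775661) lay at 12.67, 13.37 and 13.20 in the knockout, against 13.74, 13.93 and 13.93 in the wild-type. The groups did not overlap, and knockout replicate 1 was the lowest array. The means were 13.08 ± 0.37 in the knockout and 13.87 ± 0.11 in the wild-type (SD, n = 3 each), a difference of -0.79 (SE 0.20, interval -1.25 to -0.32, limma adjusted p = 0.288), or 1.72-fold lower. The probe was read from 13 to 23 beads per array, and the standard error over its beads reached 22.0% of the signal in knockout replicate 1, against 4.37% to 9.78% elsewhere. Without that array the difference was -0.58, and without wild-type replicates 2 and 3, with only wild-type replicate 1 left in its group, it was -0.66. The difference passed under array weights alone (-0.72, adjusted p = 0.017), which gave wild-type replicate 2 the largest weight.

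Myl12b encodes a second regulatory light chain, nearly identical in sequence to that of Myl12a, and the pair are neighbours on chromosome 17. Probe positions are not known here, so whether a probe of one also reads the other was not tested, and the values of both genes are uncertain in that respect. The dimmer probe (ILMN_1246534) lay at 11.43, 11.44 and 11.24 in the knockout, against 11.53, 11.99 and 11.93 in the wild-type. The groups were apart by 0.09, with a difference of -0.45 (SE 0.17, interval -0.83 to -0.06, limma adjusted p = 0.334). The brighter probe (ILMN_1255007) lay at 12.93, 12.46 and 12.43 in the knockout, against 11.99, 13.11 and 13.27 in the wild-type. Here the groups overlapped, wild-type replicate 1 being the lowest of all, and the difference was -0.18 (SE 0.34, interval -0.96 to 0.60, limma adjusted p = 0.824). The probes of this gene thus ordered the arrays differently. The brighter probe was high on the 3 arrays rich in granulocyte markers: Mpo, the myeloperoxidase gene, was at 13.07 in knockout replicate 1 and at 14.74 and 14.93 in wild-type replicates 2 and 3, against 7.64 to 8.98 on the other 3. The part of these cells in the result was not tested, and in bulk RNA fewer cells of a type and less RNA per cell cannot be told apart. Without wild-type replicates 2 and 3 the dimmer probe's difference was -0.16 and the brighter probe's turned to 0.62, with 1 wild-type array left. The brighter probe's was also 0.06 without wild-type replicate 3.

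**Figure D2:**
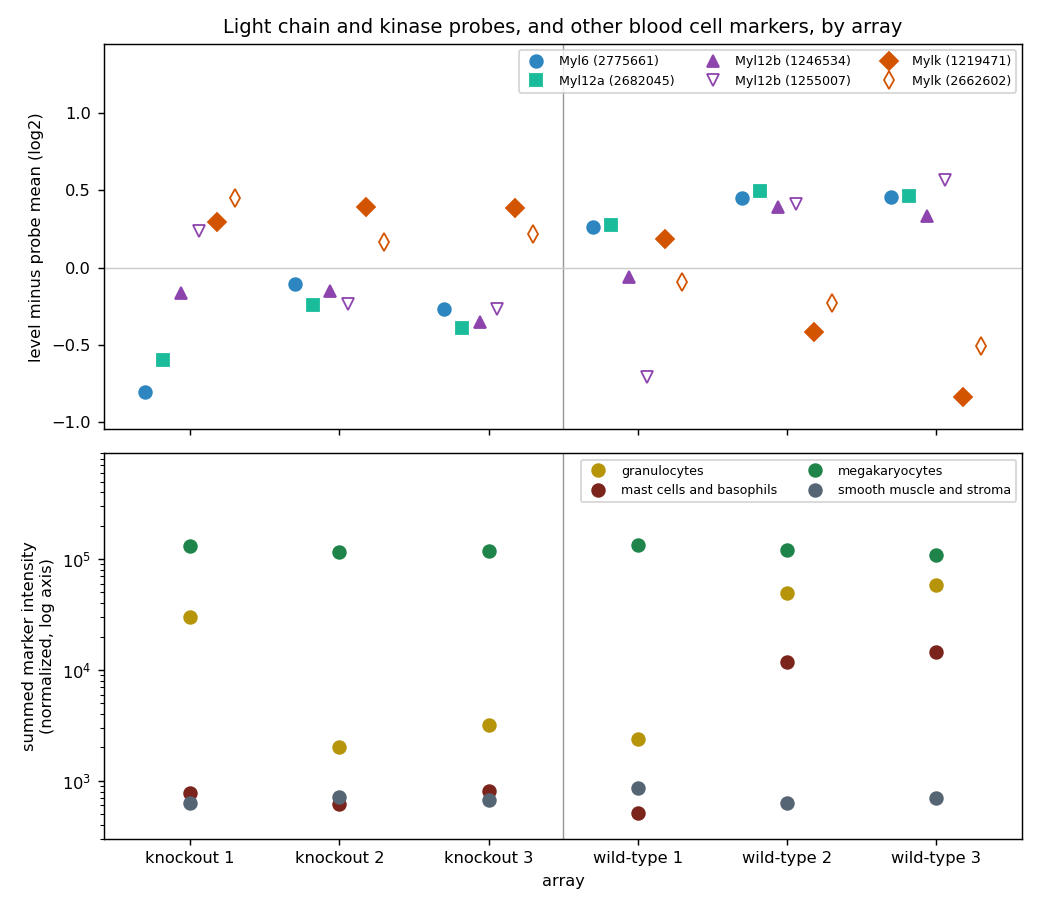
Upper panel, log2 level of each light chain and Mylk probe minus its own mean over the 6 arrays (y axis) by array (x axis, 3 knockout then 3 wild-type); lower panel, summed normalized intensity of 4 marker lists on a log axis. Myl6 and Myl12a lie below their means in all knockout arrays and above in all wild-type arrays. The brighter Myl12b probe is lowest in wild-type replicate 1, where granulocyte markers sum to 2371. The lowest granulocyte sum is 2001, in knockout replicate 2.

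The start regions of the light chain genes were searched for the CArG box because it is the site that serum response factor binds. Windows ran from 250 bases before to 50 after each RefSeq start (GRCm38.p6), the pattern reads the same on both strands, and 10 member genes had 12 windows. An exact match stood in 2 of the 12, in Myl6 and in Myl9, which has no probe, and in 1.63% of the 32851 windows of all genes. With up to 1 mismatch 3 of the 12 member windows had a match, that of Myl12a being added, where 21.1% of all windows had one. Shown 5′ to 3′ on the strand of the gene, with every match of up to 1 mismatch in capitals, are the windows of Myl6, Myl9 and Myl12a and that of Myl12b, the neighbour with none.
Myl6, chr10:128492960-128493259, minus strand: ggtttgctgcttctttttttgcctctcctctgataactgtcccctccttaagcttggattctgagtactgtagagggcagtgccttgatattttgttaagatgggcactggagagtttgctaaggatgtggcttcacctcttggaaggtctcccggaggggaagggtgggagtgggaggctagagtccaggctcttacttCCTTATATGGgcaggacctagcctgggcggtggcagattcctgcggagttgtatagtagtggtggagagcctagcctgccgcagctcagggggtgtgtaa
Myl9, chr2:156775214-156775513, plus strand: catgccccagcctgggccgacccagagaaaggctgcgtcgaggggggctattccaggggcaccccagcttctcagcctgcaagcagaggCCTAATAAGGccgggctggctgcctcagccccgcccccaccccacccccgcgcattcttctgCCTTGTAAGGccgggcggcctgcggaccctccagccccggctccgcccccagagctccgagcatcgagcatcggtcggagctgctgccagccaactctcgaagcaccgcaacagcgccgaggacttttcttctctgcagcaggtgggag
Myl12a, chr17:71002484-71002783, minus strand: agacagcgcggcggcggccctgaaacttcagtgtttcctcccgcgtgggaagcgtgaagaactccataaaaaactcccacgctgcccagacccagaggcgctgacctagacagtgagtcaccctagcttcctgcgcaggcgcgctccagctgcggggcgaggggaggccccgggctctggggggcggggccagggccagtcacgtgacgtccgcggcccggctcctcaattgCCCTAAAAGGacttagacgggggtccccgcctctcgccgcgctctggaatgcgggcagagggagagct
Myl12b, chr17:70990467-70990766, minus strand: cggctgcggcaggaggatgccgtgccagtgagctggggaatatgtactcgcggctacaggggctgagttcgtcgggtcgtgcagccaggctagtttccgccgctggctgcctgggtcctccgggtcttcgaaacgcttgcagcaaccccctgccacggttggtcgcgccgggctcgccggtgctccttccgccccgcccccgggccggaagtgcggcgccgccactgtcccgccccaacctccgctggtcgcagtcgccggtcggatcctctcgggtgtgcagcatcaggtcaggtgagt
The Myl6 match begins at -50 from the start, the exact Myl9 match at -161, a further Myl9 match with 1 mismatch at -99, and the Myl12a match, which has 1 mismatch, at -18. The other Myl6 window, chr10:128493837-128494136, held no match, and which start the array's probe reports is not known here. The windows of Myh9, Myh10, Mylk, Mylk3, Ppp1r12a and Ppp1cb held no match, which says only that these letters are not in those windows. A match describes letters in a window and is no measurement of binding.

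Mylk encodes myosin light chain kinase, the calmodulin-dependent enzyme that phosphorylates the regulatory light chain. Its brighter probe (ILMN_1219471) lay at 10.98, 11.08 and 11.07 in the knockout, against 10.87, 10.27 and 9.85 in the wild-type. Its dimmer probe (ILMN_2662602) lay at 10.41, 10.13 and 10.17 in the knockout, against 9.87, 9.73 and 9.45 in the wild-type. Both were higher in every knockout array than in any wild-type array, and for the brighter probe wild-type replicate 1 lay only 0.11 below the lowest knockout array.

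The brighter Mylk probe differed by 0.71 (SE 0.25, interval 0.14 to 1.29, limma adjusted p = 0.332), or 1.64-fold higher. The dimmer one differed by 0.55 (SE 0.16, interval 0.17 to 0.93, limma adjusted p = 0.320). Both stayed positive under all 16 alternatives, though another filter, another variance model or the replicate block could not move the differences. Array weights brought both past the threshold (0.81, adjusted p = 0.015, and 0.48, adjusted p = 0.027), and leaving out wild-type replicate 1 the brighter one (0.98, adjusted p = 0.022). Once the arrays high in both mast cell and granulocyte markers, wild-type replicates 2 and 3, were left out, the differences were 0.17 and 0.37. Only wild-type replicate 1 was left in its group. Knockout replicate 1, high in granulocyte markers only, was kept there, and the probes lay at 10.98 and 10.41 on it. The part of those cells in the difference was not tested. Without wild-type replicate 3 alone the brighter probe's was 0.47. Mylk is also a smooth muscle gene, and 9 of 12 smooth muscle and stromal markers were above background on no array, among them Acta2, Cnn1, Des and Myh11. From the rest, Smtn, Lmod1 and Pdgfrb, 1 or 2 were above background on each array. The sum over all 12 was 625 to 719 in the knockout and 632 to 853 in the wild-type. The part of such cells in the Mylk values was not tested. Of the 12 megakaryocyte markers, 11 had a higher mean in the knockout and 1, Ppbp, a lower one, with a median difference of 0.35, and none passed (lowest limma adjusted p = 0.25). Itga2b, Gp1bb, Pf4 and Gp5 lay higher in every knockout array than in any wild-type array, as Mylk did. They differed by 0.47, 0.77, 0.33 and 0.20 on average, and for Pf4 and Gp5 the gap between the groups was only 0.02. Ppbp lay lower in every knockout array than in any wild-type array, with a difference of -0.82 and a gap of 0.37. That made 4 of the 12 markers apart and higher and 1 apart and lower, where 9.77% and 9.08% of all tested probes were. The part of megakaryocyte content in the Mylk difference was not tested.

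Myosin phosphatase showed no difference that passed, and its groups overlapped on all 3 tested probes. Ppp1r12a encodes MYPT1, the subunit that carries the phosphatase to myosin. Its brighter probe (ILMN_2600911) lay at 9.85, 9.77 and 9.91 in the knockout, against 9.75, 9.996 and 9.69 in the wild-type, a difference of 0.03 (SE 0.14, interval -0.30 to 0.37). Its dimmer probe (ILMN_1220649) lay at 8.14, 8.58 and 8.32 in the knockout, against 8.52, 8.23 and 8.57 in the wild-type, a difference of -0.09 (SE 0.17, interval -0.49 to 0.31). Both intervals spanned 0.

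Ppp1cb encodes the catalytic subunit of the phosphatase. Its 1 tested probe (ILMN_2647628) lay at 8.96, 8.44 and 9.21 in the knockout, against 8.51, 8.96 and 8.79 in the wild-type. The difference was 0.11 (SE 0.23, interval -0.41 to 0.64, limma adjusted p = 0.838), and the arrays interleaved. The other 2 Ppp1cb probes were above background on no array, with values from 4.91 to 5.56, so they carry no measurement of this gene.

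**Figure D3:**
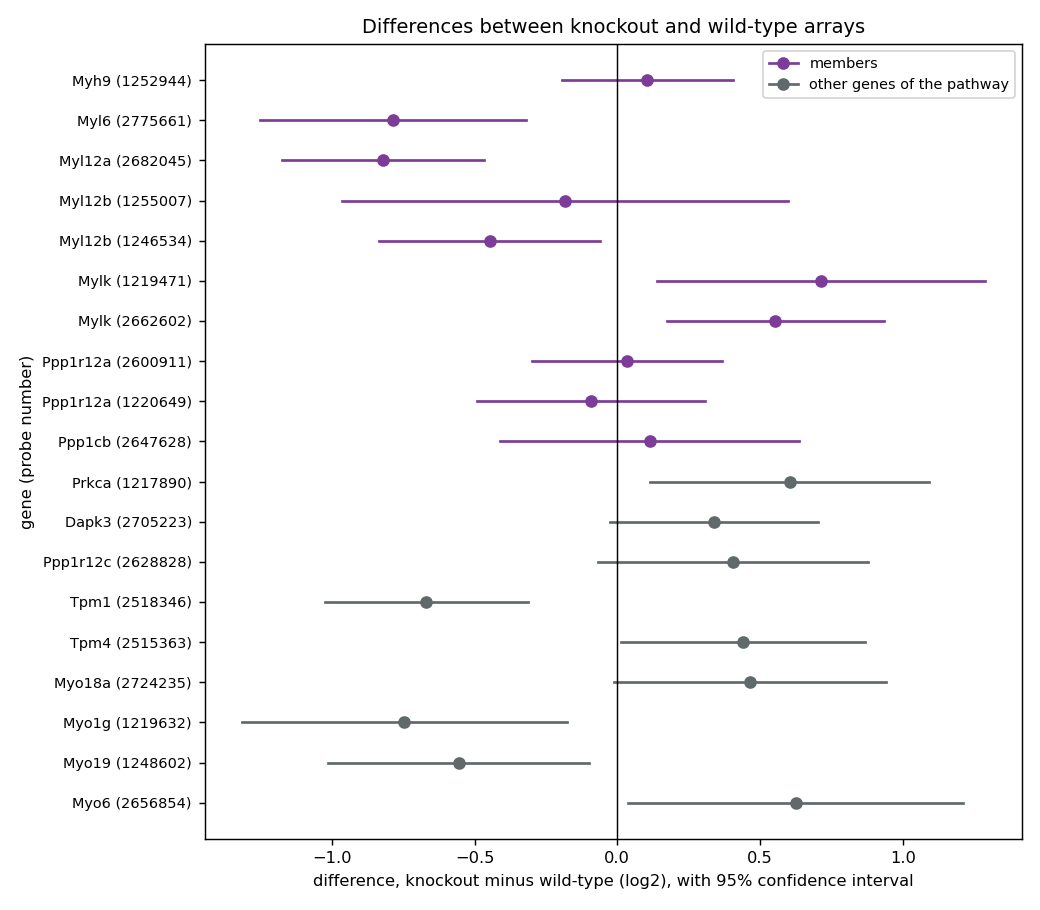
Difference, knockout minus wild-type, in log2 (x axis) with 95% confidence intervals for the 10 tested member probes (purple) and 9 other genes of the pathway (grey). Myl12a has the most negative member difference (-0.82) and the brighter Mylk probe the most positive (0.71); the Ppp1r12a and Ppp1cb intervals span 0.

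In the authors' processed values the members kept these directions. There none of the 10 tested probes passed (limma adjusted p 0.172 to 0.926). Myl6 differed by -0.80, Myl12a by -0.52, the dimmer Myl12b probe by -0.42 and the brighter by -0.19. The Mylk probes differed by 0.61 and 0.43, and Myh9 by 0.11. No value in that table lies under 7.799, and the Myh10 probe lay between 8.03 and 8.17 there.

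Further genes that act on myosin II were read from lists of the pathway, by 1 probe a gene. The lists held 111 genes, of which 86 had a probe and 47 could be tested, and none had a limma adjusted p under 0.05, where 0.16% of 6869 tested genes did. At an unadjusted p under 0.05 there were 9, 3 lower and 6 higher, of the 47, against 12.9% of all tested genes. Among all 6869 tested genes 430 with such a p were lower and 453 higher. The median difference of the 47 was 0.10, against -0.01 over all tested genes. That median was 0.17 without knockout replicate 2, 0.047 without knockout replicate 3, 0.038 in the authors' processed values and 0.009 with the stricter detection filter.

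Of the other light chain kinases, phosphatase parts and calmodulins, 13 of 24 were tested, none passed, and the median was 0.16 with 3 negative and 10 positive. Over all 6869 tested genes 3501 were negative and 3368 positive. Prkca, a protein kinase C that acts on a phosphatase inhibitor, differed by 0.60 (SE 0.21). Dapk3, a kinase of the regulatory light chain, differed by 0.34 (SE 0.16), and Ppp1r12c, a relative of Ppp1r12a, by 0.40 (SE 0.20). Dapk3 was at 0.22 without wild-type replicate 2, and Ppp1r12c at 0.21 without wild-type replicate 3. With wild-type replicates 2 and 3 left out, the arrays high in both granulocyte and mast cell markers, Prkca differed by 0.23, Dapk3 by 0.19 and Ppp1r12c by 0.03. Knockout replicate 1, high in granulocyte markers only, was kept there, and only wild-type replicate 1 was left in its group. The part of those cells in this list was not tested. Of the filament partners, 10 of 19 were tested and none passed, with a median of 0.08. The tropomyosins Tpm1 and Tpm4, which coat actin filaments, differed by -0.67 (SE 0.15) and 0.44 (SE 0.18). Dimmer Tpm4 probes differed by 0.18 (ILMN_1223539, groups overlapping) and 0.57 (ILMN_2479062, groups apart). Myo18a, a myosin that joins myosin II filaments, differed by 0.46 (SE 0.21). Myo18a was at 0.27 without wild-type replicate 2. With both of those wild-type arrays left out Tpm1 differed by -0.68, Tpm4 by 0.11 and Myo18a by 0.075. The limma adjusted p of these 6 genes, by the brightest probe of each and over all arrays, ran from 0.271 to 0.408.

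Muscle and other non-muscle chains gave no tested probe. Of 19 such genes 12 were on the array, and 8 of them, including Myh14, the third non-muscle heavy chain, were above background nowhere. Myl1, Myl4, Myl7 and Myl10 were each above background on 1 knockout array and no wild-type array. Of the unconventional myosins, single motors that move cargo or membrane, 8 of 23 were tested and none passed, with a median of -0.07. Myo1g, of the blood cell membrane, lay at 10.46, 10.33 and 10.53 in the knockout, against 10.61, 11.54 and 11.40 in the wild-type. The difference was -0.75 (SE 0.25, limma adjusted p = 0.326). The highest arrays were the wild-type replicates high in both granulocyte and mast cell markers. Knockout replicate 1, high in granulocyte markers only, lay below every wild-type array. The part of those cells was not tested. With wild-type replicates 2 and 3 left out, and only wild-type replicate 1 kept in its group, the Myo1g difference was -0.17. Myo19, a mitochondrial motor, differed by -0.56 (SE 0.20), and Myo6, which walks to the pointed end of actin, by 0.62 (SE 0.25). Myo6 lay lowest on the same wild-type arrays, at 10.16 and 9.89, but highest in knockout replicate 1, at 11.26. Without those wild-type arrays Myo6 differed by 0.22 and Myo19 by -0.52.

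The count of calls rested on which arrays were used and how they were weighted. Without wild-type replicate 1, 2 member probes and 5 of the further genes passed, where 8.55% of all tested probes did. With arrays weighted by how closely they followed the model, 5 member probes (3 lower, 2 higher) and 13 further genes passed, where 20.8% of all tested probes did, 9.07% lower. Those weights ran from 0.32 for wild-type replicate 1 to 5.91 for wild-type replicate 2, so 1 array carried most of the wild-type mean. Both fits with member calls thus drew the wild-type mean wholly or mainly from wild-type replicates 2 and 3. Those arrays were high in granulocyte and mast cell markers, and the part of those cells in the calls was not tested. Leaving out any other single array gave no member call.

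**Figure D4:**
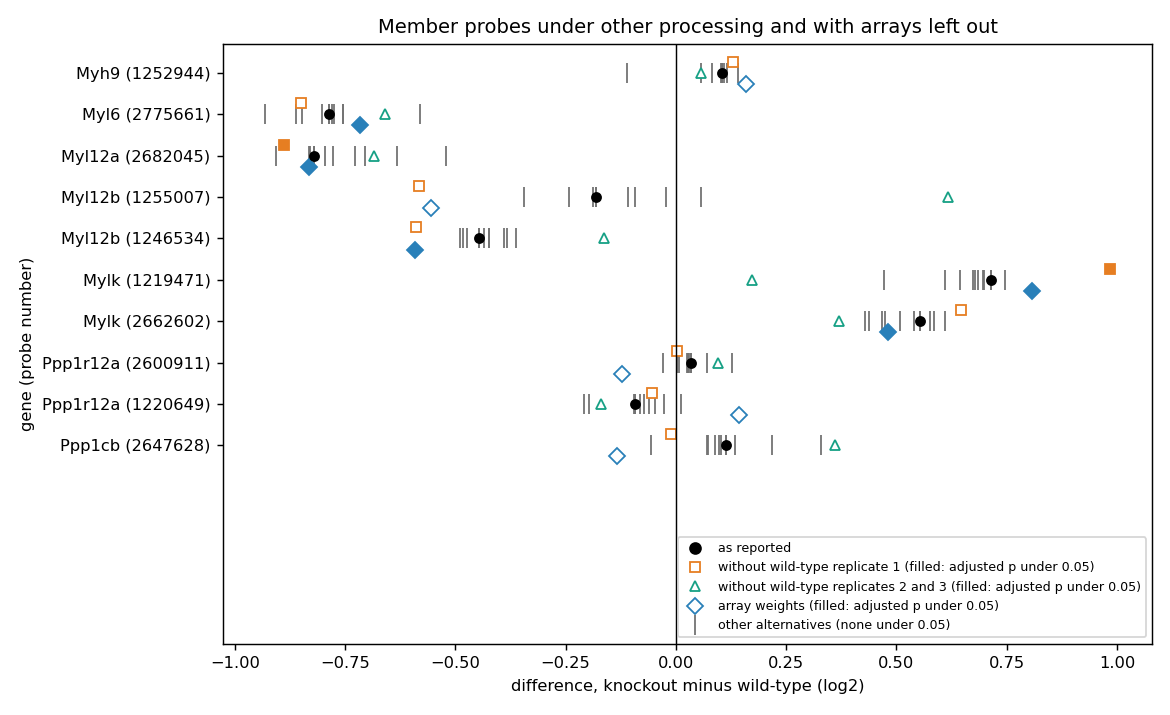
Difference, knockout minus wild-type, in log2 (x axis) of each tested member probe as reported (black) and under 16 alternatives; filled squares and diamonds had an adjusted p under 0.05. Myl6, Myl12a, the dimmer Myl12b probe and both Mylk probes keep their sign throughout. Another filter, another variance model or the replicate block cannot move a difference. The brighter Myl12b probe moves to 0.62 without wild-type replicates 2 and 3, which leaves only wild-type replicate 1 in its group.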

How the data were processed

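RNA of 6 samples was read on Illumina bead arrays, 1 array each. Per the file headers, the deposited table held a raw intensity per probe, a signal for the standard error over its beads, a count of beads and a detection p-value. Per the submitters' processing notes BeadStudio 3.2 and lumi were used, with no role given. The authors' processed values are on a log2-like scale with equal quantiles, and their transform is not given in the sources used here.

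Intensities were corrected for background (normexp, taking the control levels that the detection p implies), given an offset of 16, brought to equal quantiles and put on the log2 scale (neqc; limma 3.58.1, R 4.3.3). The offset shrinks differences of dim probes. limma's linear model with eBayes compared knockout with wild-type, two-sided, over 9403 probes. It was tested on simulated data. A gene with several probes is given by each of them, and in the lists by its brightest. The number of arrays limits the precision. The files name no genome build.

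Named were all members, Srf, and for each list the genes that passed or otherwise the 3 with the smallest p. The genes of 1 list enter the totals over all lists and are not reported here by name. The members and lists were chosen with earlier results of these data known. The marker lists covered megakaryocytes, mast cells and basophils, granulocytes, smooth muscle and stroma, erythroid cells, monocytes and macrophages, and lymphocytes. Of the last 3, summed intensities were 663 to 756 in the knockout and 714 to 1100 in the wild-type for erythroid cells. They were 750 to 958 in the knockout and 862 to 893 in the wild-type for monocytes and macrophages, and 759 to 1001.5 in the knockout and 678 to 2475 in the wild-type for lymphocytes. The lymphocyte sums were 2475 and 2452 in wild-type replicates 2 and 3, against 678 in wild-type replicate 1. Of 6 monocyte and macrophage markers, 4 were above background on each of wild-type replicates 2 and 3. On wild-type replicate 1 it was 1, and on knockout arrays 1 to 2. Probes left unnamed numbered 3628.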

Additional observations from a re-analysis of the deposited data

How the results depend on the processing

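Over 16 alternatives (background correction, scaling, filter, variance model, array weights, replicate block and arrays left out), Srf passed under all, the only named difference that passed to begin with. All probes that passed numbered 15, against 9 with no filter, 9 with the strict filter of detection p under 0.01 on all arrays, 6 with the replicate block and 1955 with array weights. With single arrays left out they ranged from 7 to 839, member probes that passed from 0 to 2, and further pathway genes from 0 to 5. Array weights gave 5 member probes and 13 further genes. The cause of these shifts was not tested. Whether the replicate numbers pair the samples is not known here. Deviations from the group means correlated at -0.27, -0.13 and -0.09 between arrays of the same number. With 3 arrays a group, and arrays that stood apart within each group, these values cannot decide it. The replicate block changed no member call. Signs turned for 5 member probes. Myh9 was -0.11 with percentile scaling. With array weights the brighter Ppp1r12a probe was -0.12, the dimmer 0.14 and Ppp1cb -0.13. With wild-type replicates 2 and 3 left out, and only wild-type replicate 1 kept in its group, the brighter Myl12b probe (ILMN_1255007) was 0.62. Leaving out 1 array at a time, the difference of Myl12b ILMN_1255007 ranged from -0.58 to 0.058, that of Ppp1r12a ILMN_2600911 from -0.028 to 0.13, that of Ppp1r12a ILMN_1220649 from -0.21 to 0.012 and that of Ppp1cb ILMN_2647628 from -0.057 to 0.33. Ppp1cb was also -0.01 when wild-type replicate 1 was the array left out. Signal over background limits Myh10, the second Myh9 probe and 2 Ppp1cb probes, which were not tested.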

Other observations

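The genes whose levels ran most like those of a member over the 6 arrays were looked up among 6868 other tested genes, by the root mean square difference between profiles centred on their own means. For Myh9 they were Nipa1 (0.02), Slmap (0.03) and Atp6v0e (0.04), log2 units throughout, and its own profile spans 0.24, so many flat genes lie near it. Myl6, Myl12a, Myl12b and Mylk, 1 probe each, were looked up after their values had been seen. For Myl12a the nearest were Agrn, a secreted matrix protein (0.11), Myl6 itself (0.11) and Acsbg1 (0.12), and for Myl6 they were Agrn (0.09), Gch1 (0.10) and H4c3 (0.11). Myl6 and Myl12a, an essential and a regulatory light chain, spanned 1.26 and 1.09 themselves.

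The brighter Myl12b probe ran closest to Grn, the progranulin gene of myeloid cells (0.07), Ptprcap, which binds the leukocyte phosphatase CD45 (0.07), and Tbc1d5 (0.11). Grn lay at 10.96, 10.57 and 10.59 in the knockout, against 10.15, 11.37 and 11.44 in the wild-type. The brighter Mylk probe ran closest to Rbpms2, an RNA-binding protein (0.05), Insl3 (0.06) and Get3 (0.07). Rbpms2 lay at 12.78, 13.02 and 12.97 in the knockout, against 12.76, 12.16 and 11.80 in the wild-type, low on the same arrays as Mylk.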
